A study of Mus musculus with 40 samples.

Results

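Collagens are the main structural proteins of the extracellular matrix, each made of 3 chains wound into a triple helix. Fibrillar collagens (types I, III, V and their relatives) form the tensile fibres of the meninges and vessel walls, type IV chains form the sheet-like network of basement membranes around vessels and under the pial surface, and type VI chains form beaded filaments beside them. In the brain, neurons and glia also make collagens, among them the transmembrane type XXV, which is known as a neuronal collagen.

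The genes described here are those whose symbols are Col followed by a type number, the letter a and a chain number. They came to 44 of the 23955 gene symbols in the deposited counts and to 27 collagen types. Their mRNA was measured in the hypothalamus of 40 mouse strains kept in the basal state without treatment: 36 BXD recombinant inbred lines, whose genomes are mosaics of C57BL/6J and DBA/2J, the parents C57BL/6J and DBA/2J themselves, and the reciprocal hybrids B6D2F1 and D2B6F1. The series set out to screen hypothalamic genes for regulators of glucagon secretion and names Fgf15/19 in its title. Each strain gave 1 library, made for a BXD line from RNA pooled over 3 to 6 hypothalami, and neither age nor sex of the mice is given in the sources used here. With 1 library a strain, the p-values below measure a relation against the spread between strains, and how far animals or repeat libraries of a strain vary is unknown.

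Library totals ran from 12.2 M counts in BXD55 to 40.4 M in BXD51, and levels are given as CPM, the counts divided by the scaled library total in M. All 10 hypothalamic markers listed, among them Pomc, Avp and Oxt, were found, with 337.6 to 833.6 CPM summed over the list in the lines. Libraries also differed in transcripts of tissue next to the hypothalamus. In BXD32 the 13 choroid plexus markers summed to 1010 CPM against a median line of 114.0, in BXD90 the 7 striatal markers summed to 1099 CPM against 284.5, and the 17 meningeal markers ran from 58.5 CPM in BXD55 to 312.7 in BXD56. Calls that depended on BXD32 or BXD90 are therefore named beside the result. For bulk tissue, fewer cells of a type and less RNA per cell cannot be told apart.

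All 44 collagen genes had at least 1 read in every library. Together they made up 0.0871% to 0.118% of the counts of a line and 1024 ± 71.0 CPM (SD over 36 lines), from 860.0 in BXD51 to 1159 in BXD83, and the parents and hybrids lay between 1013 and 1066. The mean over the lines was at least 10 CPM for 24 of the genes and under 1 CPM for 3, Col13a1, Col17a1 and Col10a1. The rarest, Col10a1 of hypertrophic cartilage, had 1 to 16 reads a library and was the member that did not pass the filter on low counts, so 43 of 44 entered the tests below.

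Basement membrane chains took the largest share of the collagen counts, ahead of the fibrillar chains. They made up 26.3% ± 1.84 of the collagen CPM of a line (SD, n = 36), fibrillar chains 22.1% ± 1.88, transmembrane chains 20.8% ± 1.69, fibril-associated chains 13.8% ± 1.40 and beaded-filament chains 8.92% ± 1.53. Per kilobase of merged exons, which makes genes of different length comparable, the highest level was that of Col25a1 at 27.04 CPM per kb, followed by Col4a2 at 25.3, Col4a1 at 13.2, Col16a1 at 10.8 and Col11a1 at 9.47. Col1a2 came 11th with 4.01 CPM per kb, Col1a1 25th with 1.43 and Col3a1 29th with 1.23. Exon lengths came from a GRCm38 annotation while the reads were counted on mm9, so the order of genes with close values is approximate.

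**Figure D1:**
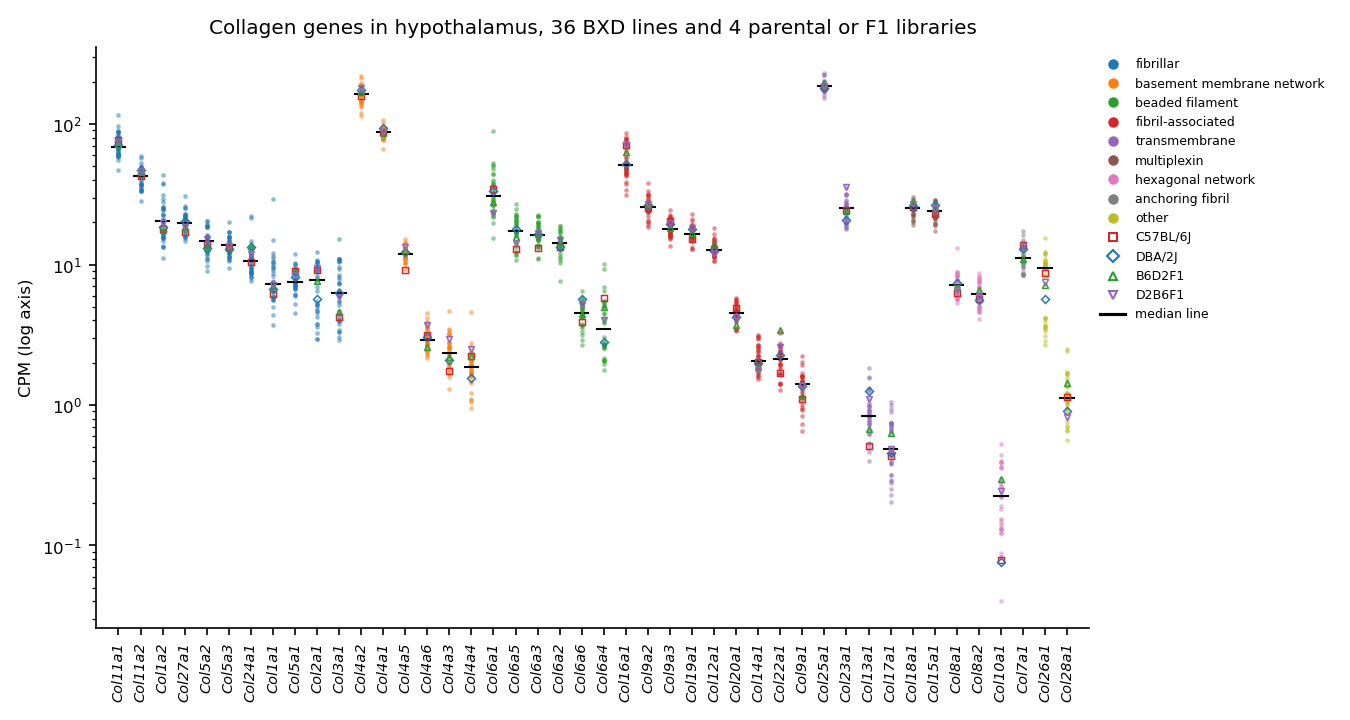
Level of each collagen gene in CPM (log axis), ordered by class and by mean: dots are the 36 BXD lines, black bars the median line, open symbols the 2 parents and 2 hybrids. Col25a1 and Col4a2 lie above 100 CPM in every line, Col10a1 below 1 CPM, Col26a1 and Col6a4 spread by 5.73- and 5.65-fold, and in Col1a1 and Col6a1 a single line, BXD96 or BXD90, stands above the rest.

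Type XXV collagen, a single-pass membrane protein of neurons, was the most abundant collagen mRNA and among the steadiest. Col25a1 ran from 153.4 CPM in BXD45 over a median of 185.6 to 229.4 in BXD63, with 185.0 in C57BL/6J, 179.4 in DBA/2J, 194.7 in B6D2F1 and 185.4 in D2B6F1. Its highest line was 1.495 times its lowest, and the parents and hybrids lay near the median. The next transmembrane member, Col23a1, ran from 17.9 CPM in BXD32 over 25.1 to 35.8 in BXD44, with 24.5, 20.7, 24.2 and 35.8 CPM in C57BL/6J, DBA/2J, B6D2F1 and D2B6F1. The 2 hybrids differed in this gene by 0.56 log2 units, with more in D2B6F1 and no replicate of either, and among the collagen genes with at least 5 CPM in either parent it was the single one to reach 0.5 between them. The remaining transmembrane members were rare: Col13a1, found at neuromuscular junctions and in mesenchyme, had a median of 0.841 CPM (0.401 to 1.85), and Col17a1, a hemidesmosome protein of skin, had 0.488 (0.206 to 1.06).

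Basement membrane collagen was represented by all 6 type IV chains at very unequal levels. Col4a1, which with Col4a2 builds the network common to all basement membranes, ran from 65.96 CPM in BXD51 over 88.1 to 107.4 in BXD50, with 87.1, 94.3, 85.8 and 87.7 CPM in C57BL/6J, DBA/2J, B6D2F1 and D2B6F1. Col4a2 ran from 114.4 CPM in BXD51 over 163.7 to 218.4 in BXD83, with 157.4, 174.2, 170.0 and 180.7 CPM in the same order. Per kilobase, Col4a2 exceeded Col4a1 in all 40 libraries, by 1.92 ± 0.156 times (SD over 36 lines), although the protein they form is known to hold 2 chains of the first for each of the second. The X-linked pair came next, with a median of 11.9 CPM for Col4a5 (9.29 in BXD51 to 15.2 in BXD101) and 2.92 for Col4a6 (2.16 in BXD67 to 4.50 in BXD56). Col4a5 in C57BL/6J, at 9.16 CPM, lay just below the lowest line. Col4a3 and Col4a4, the chains of kidney and ear basement membranes, had medians of 2.36 and 1.87 CPM, and both were highest in BXD32, at 4.70 and 4.56 CPM.

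The genes Col4a1 and Col4a2 lie head to head on chromosome 8 and start from a shared control region. RefSeq windows on GRCm38.p6, 250 bases before to 50 after the start, are shown for the pair because the data below bear on how closely both mRNAs moved. Col4a1 is read from the minus strand at chr8:11312777-11313076 and Col4a2 from the plus strand at chr8:11312555-11312854. Both are printed 5′ to 3′ on the gene's own strand, with the 78 bases that both windows hold in capitals, as reverse complements of each other.
Col4a1: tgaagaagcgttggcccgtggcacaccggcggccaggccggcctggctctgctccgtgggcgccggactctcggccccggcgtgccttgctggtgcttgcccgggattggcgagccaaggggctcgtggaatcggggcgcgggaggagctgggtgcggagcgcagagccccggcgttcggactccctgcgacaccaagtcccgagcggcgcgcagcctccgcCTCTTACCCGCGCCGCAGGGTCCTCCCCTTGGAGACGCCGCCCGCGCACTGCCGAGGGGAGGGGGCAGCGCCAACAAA
Col4a2: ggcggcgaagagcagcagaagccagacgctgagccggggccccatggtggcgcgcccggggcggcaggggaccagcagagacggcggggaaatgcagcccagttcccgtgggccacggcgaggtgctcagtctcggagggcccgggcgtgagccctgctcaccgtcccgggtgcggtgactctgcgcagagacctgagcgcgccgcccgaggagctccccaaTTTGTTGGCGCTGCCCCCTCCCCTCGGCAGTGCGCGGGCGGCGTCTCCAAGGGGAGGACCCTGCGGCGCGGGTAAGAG
Their first transcribed bases stand at the ends of a stretch of 22 bases, and by these coordinates both genes are read through it. Neither window holds a TATA box (TATAAA on either strand), a motif found in 13.6% of all RefSeq mouse windows of this length and in 13.2% of the 38 windows of collagen genes. Both hold 1 CCAAT box (CCAAT on either strand), found in 37.4% of all windows and 34.2% of the collagen windows. The GC box (GGGCGG on either strand) occurs once in the Col4a1 window and 3 times in that of Col4a2, and is found in 35.7% of all windows and 60.5% of the collagen windows. The collagen windows also hold more G and C, with a median of 59.8% against 52.7%. No matches overlapped in the windows shown, and 35 of the 44 genes had a window.

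Beaded-filament collagen was led by Col6a1, whose chain joins those of Col6a2 and Col6a3 in type VI collagen. Col6a1 ran from 15.4 CPM in BXD55 over 30.7 to 89.6 in BXD90, with 34.5, 33.4, 27.9 and 23.3 CPM in C57BL/6J, DBA/2J, B6D2F1 and D2B6F1. Its range over the lines was 5.82-fold, or 3.44-fold without BXD90, which stood above the next line, BXD64 at 52.8 CPM. Col6a2 covered 2.44-fold with BXD90 and 2.43-fold without it, and ran from 7.69 CPM in BXD55 over 14.2 to 18.8 in BXD90, with 13.2, 13.4, 14.5 and 14.8 CPM in the others. Per kilobase, Col6a1 exceeded Col6a2 in all 40 libraries, by 2.10 times in BXD101 to 7.001 times in BXD90. Col6a3 had a median of 16.25 CPM (10.9 to 22.4). Of the chains known as later relatives of the third chain, Col6a5 had 17.3 (10.8 in BXD55 to 27.1 in BXD63), Col6a6 4.49 (2.67 to 6.45) and Col6a4 3.46 (1.78 in BXD32 to 10.1 in BXD90).

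Among fibrillar chains, those of type XI led rather than those of type I. Col11a1, a minor fibril component best known from cartilage, ran from 46.97 CPM in BXD51 over 68.9 to 116.8 in BXD43, with 77.1, 70.4, 72.2 and 74.9 CPM in C57BL/6J, DBA/2J, B6D2F1 and D2B6F1. Col11a2 ran from 28.4 CPM in BXD63 over 42.5 to 59.4 in BXD32, with 42.4 to 46.9 in the 4 others. Type I collagen, the bulk protein of skin and bone, was low and uneven. Col1a2 ran from 11.2 CPM in BXD55 over 20.4 to 43.5 in BXD96, with 17.97, 18.5, 17.5 and 19.8 CPM in C57BL/6J, DBA/2J, B6D2F1 and D2B6F1. Col1a1 ran from 3.72 CPM in BXD63 over 7.27 to 29.4 in BXD96, with 6.16, 6.74, 7.04 and 7.12 in the same order. BXD96 stood apart in this gene, the next line being BXD56 at 14.97 CPM. Per kilobase, Col1a2 exceeded Col1a1 by 2.92 ± 0.541 times (SD over 36 lines) and in all 40 libraries, with the smallest ratio, 1.64, in BXD96. Col3a1, the chain of the fine reticular fibres, ran from 2.91 CPM in BXD100 over 6.29 to 15.1 in BXD56, with 4.23, 6.25, 4.61 and 5.90 CPM in the others.

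The remaining fibrillar genes had medians between 7.53 CPM for Col5a1 and 19.6 for Col27a1. Col5a1, whose chain starts fibrils of type I, spanned 4.55 in BXD55 to 11.96 in BXD90, and its partner Col5a2 spanned 9.01 in BXD55 over 14.8 to 20.4 in BXD51. Col27a1 spanned 14.6 in BXD48 to 30.7 in BXD32, and Col24a1 7.63 in BXD79 over 10.6 to 22.3 in BXD32. Col2a1, the main fibril chain of cartilage, had 2.96 CPM in BXD61, a median of 7.77 and 12.3 in BXD101.

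Collagens that decorate fibrils were led by Col16a1, which ran from 31.3 CPM in BXD45 over 51.5 to 86.9 in BXD87, with 70.4, 51.95, 62.75 and 70.5 CPM in C57BL/6J, DBA/2J, B6D2F1 and D2B6F1. Col9a2, of type IX, ran from 18.6 CPM in BXD45 over 25.8 to 38.05 in BXD95, with 25.1 to 26.9 in the 4 others. Its partner chain Col9a3 had a median of 17.8 CPM, whereas Col9a1 had 1.41, and per kilobase Col9a2 exceeded Col9a1 by 14.5 to 55.8 times over the lines. The other genes of the class had medians of 16.6 CPM for Col19a1, a collagen known from some interneurons, 12.65 for Col12a1, 4.55 for Col20a1, 2.14 for Col22a1 and 2.07 for Col14a1. Col12a1, which bridges fibrils under load, was highest in BXD32 at 18.3 CPM. The multiplexins of vascular and neural basement membranes were alike in level, with medians of 25.4 CPM for Col18a1, the source of endostatin, and 24.1 for Col15a1. Lower still were Col7a1 of anchoring fibrils with a median of 11.2 CPM, Col8a1 and Col8a2 of hexagonal networks with 7.10 and 6.16, and Col28a1 with 1.12.

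Collagen mRNAs varied more between the lines than most genes did. The biological coefficient of variation, the relative spread between lines beyond counting error, had a median of 0.174 over the 43 collagen genes and 0.105 over the 16198 genes tested. It lay above the median of all genes for 39 of the 43 and above the 90th percentile of all genes for 10. Low expression alone raises this measure, and read against the trend at the same mean level, 23 of 43 lay above it, compared with 22.3% of all genes. The widest spread was in Col26a1 (0.480), Col6a4 (0.435), Col3a1 (0.425), Col2a1 (0.388), Col1a1 (0.385), Col6a1 (0.345) and Col1a2 (0.319), and the narrowest was in Col25a1 (0.0835) and Col4a1 (0.0908). Some lines held many of the extremes: BXD32 was the highest line for 10 of the 44 genes, BXD90 for 5, and BXD51, the deepest library, was the lowest for 6, among them Col4a1, Col4a2 and Col11a1. BXD55, the shallowest library and the lowest in meningeal markers, was the lowest line for Col1a2, Col5a1, Col5a2, Col6a1, Col6a2 and Col6a5. The part of depth in these extremes was not tested gene by gene. How often the same lines were extreme over all genes was not counted. The extremes are therefore not read as particular to collagens.

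Of 17 pairs of collagen genes compared over the 36 lines, 11 join chains of the same type and 6 join relatives, neighbours or different classes. They were compared as Pearson's r of log2 CPM with 100000 permutations, two-sided, adjusted over the 17 by the Benjamini-Hochberg method. Of these pairs, 6 of the 11 and 2 of the 6 passed. How many pairs of genes at large would pass was not counted, so these counts are not read as particular to collagens. Closest were Col1a1 with Col1a2, whose genes lie on chromosomes 11 and 6 (r = 0.86, Spearman's rho = 0.87, permutation p = 1e-05, the lowest value this number of permutations allows, adjusted permutation p = 8.5e-05), and the head-to-head pair Col4a1 with Col4a2 (r = 0.84, rho = 0.83, adjusted permutation p = 8.5e-05). Without the 2 lines farthest from the median of the first gene, these became 0.82 and 0.77. Both held after the meningeal and vascular marker scores were regressed out, at r = 0.83 and 0.85.

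The other pairs moved together more loosely or not detectably. Col4a5 with Col4a6 reached r = 0.52, rho = 0.49 and an adjusted permutation p of 0.00489, and Col5a1 with Col5a2 r = 0.52, rho = 0.46 and 0.00489. The latter fell to 0.37 without BXD55 and BXD90 and no longer passed (adjusted permutation p = 0.0896). Col11a1 with Col11a2 gave r = 0.42, rho = 0.37 and an adjusted permutation p of 0.0297, and did not pass without BXD43 and BXD51 (r = 0.37, adjusted permutation p = 0.0896). The multiplexins Col15a1 and Col18a1 gave r = 0.44 and rho = 0.39 with an adjusted permutation p of 0.0218, and did not pass without BXD45 and BXD90 (r = 0.28, adjusted permutation p = 0.248). Col4a3 with Col4a4, a head-to-head pair like Col4a1 and Col4a2, gave r = 0.37, rho = 0.35 and an adjusted permutation p of 0.0528, at 18 to 108 reads a library. Without BXD32, where both genes were highest, and BXD45 it was r = 0.12 (adjusted permutation p = 0.657). Type VIII (r = 0.18) and both type IX pairs (0.17 and -0.13) did not pass. Neither did the neighbouring genes Col3a1 and Col5a2 (r = 0.26, adjusted permutation p = 0.1805).

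No pair compared across classes passed, while the fibrillar pair of types I and III did. Col1a1 with Col3a1 gave r = 0.49 and rho = 0.70 (adjusted permutation p = 0.00646), and 0.71 without BXD56 and BXD96. After regression on the meningeal and vascular scores the pair was at r = -0.01 (adjusted permutation p = 0.954). Col1a1 with Col4a1, the fibrillar against the basement membrane chain, gave r = -0.07 and rho = 0.02 (adjusted permutation p = 0.684), Col1a1 with Col6a1 r = 0.25 (0.181) and Col4a1 with Col6a1 r = -0.29 (0.154). These pairs do not stand for their whole classes. Outside the pairs tested, the fibrillar Col5a1 had Col6a2 as its most alike gene (r = 0.72). Col5a2 with Col6a1 gave r = 0.62. Both were picked after their values were seen, and other pairs across classes were not counted.

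**Figure D2:**
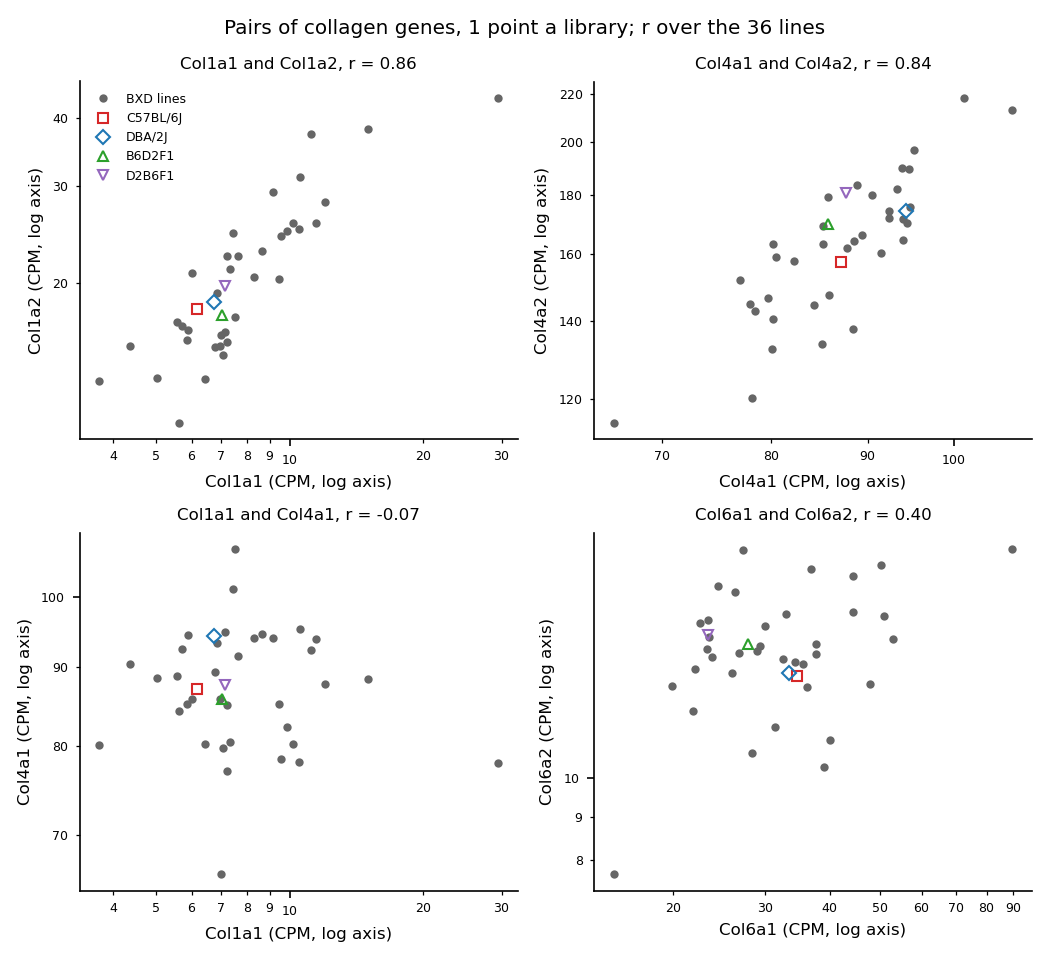
CPM of 2 collagen genes against each other on log axes, 1 point a library, with filled points for the 36 BXD lines and open symbols for the parents and hybrids. Col1a1 with Col1a2 and Col4a1 with Col4a2 form narrow bands (r = 0.86 and 0.84), Col1a1 with Col4a1 shows none (-0.07), and Col6a1 with Col6a2 scatters with BXD55 and BXD90 at its ends (0.40).

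To see which collagens rose with meningeal transcripts, each gene was fitted with edgeR's quasi-likelihood test on the mean log2 level of 15 meningeal markers. These markers include Aldh1a2 and Slc13a4, and also Dcn and Lum, which encode matrix proteins, so the score is itself partly a matrix measure. A slope gives log2 units per log2 unit of that score. Of 43 collagen genes, 7 rose with the score and 0 fell, where 1.72% of the 16065 genes tested rose and 0.0373% fell. The median slope was 0.03 for collagen genes and -0.01 for all genes. The steepest was Col3a1, with a slope of 0.94 ± 0.08 (SE, adjusted p = 1.73e-11), so its level nearly tracked the markers themselves. Col1a2 had 0.55 ± 0.09 (adjusted p = 8.25e-05), Col13a1 0.46 ± 0.11 (0.0150), Col6a2 0.31 ± 0.05 (5.56e-06), Col4a6 0.28 ± 0.06 (0.00188), Col5a1 0.28 ± 0.06 (0.00501) and Col4a5 0.15 ± 0.04 (0.0236). Col1a1 had a slope of 0.36 ± 0.14 that did not pass (adjusted p = 0.3499). The most abundant basement membrane chains lay near 0, with slopes of 0.02 ± 0.04 for Col4a1 and -0.02 ± 0.06 for Col4a2.

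Leaving out BXD56 and BXD101, the lines farthest from the median score, left 5 of the 7 calls, those of Col3a1, Col1a2, Col4a6, Col5a1 and Col6a2. With meningeal, vascular, choroid plexus, striatal and thalamic scores in a single fit, 2 remained, Col3a1 with 0.87 (adjusted p = 1.01e-04) and Col6a2 with 0.30 (0.0353). Leaving out BXD32 or BXD90 kept all 7. The score rose by 2.57 log2 units from BXD55 to BXD56, and among the 17 markers Slc22a2 was at 0 in some library.

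Genes that make, process and bind collagen were read from the same fit, in which 1.72% of all genes tested rose and 0.0373% fell. Of 22 partner matrix proteins tested, 7 rose with the meningeal score and 0 fell, with a median slope of 0.11, among them fibronectin (Fn1, 0.56 ± 0.04), biglycan (Bgn, 0.49 ± 0.05), nidogen-1 (Nid1, 0.33 ± 0.04) and perlecan (Hspg2, 0.26 ± 0.06). Of 13 genes for propeptide removal and crosslinking 2 rose, the crosslinking enzyme Lox (0.75 ± 0.12) and the procollagen C-proteinase enhancer Pcolce (0.72 ± 0.05). Of 10 receptors 2 rose, the uptake receptor Mrc2 (0.65 ± 0.06) and the kinase Ddr2 (0.52 ± 0.05), of 10 breakdown genes 1, the inhibitor Timp1 (0.38 ± 0.11), and of 20 genes for hydroxylation and chaperoning 1, the collagen chaperone Serpinh1 (0.28 ± 0.08). None of these lists had a member that fell with this score, and the adjusted p of each gene named here was at most 0.0467. Without BXD56 and BXD101, 11 of these 13 calls remained, all but Serpinh1 (adjusted p = 0.275) and Timp1 (0.0833), and with all 5 scores in one fit 7 remained. Without BXD90 the call of Timp1 was lost (adjusted p = 0.0700). Timp1 and Lox were rare, with means of 0.746 and 1.10 CPM over the lines.

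Vascular markers gave a similar set over a much narrower range. The mean of 25 endothelial, mural and smooth-muscle markers varied by 0.46 log2 units over the lines, and its r with the meningeal score was 0.73. With this score 5 of 43 collagen genes rose and 0 fell, where 1.37% of all genes tested rose and 0.0934% fell: Col3a1 (slope 3.80 ± 0.70, adjusted p = 0.00104), Col1a1 (2.90 ± 0.75, 0.0360), Col1a2 (2.66 ± 0.56, 0.00542), Col4a6 (1.48 ± 0.33, 0.00857) and Col6a2 (1.19 ± 0.32, 0.0409). Only Col3a1 passed without BXD56 and BXD75 (adjusted p = 0.0487), and with all 5 scores in the fit 0 passed. Vessel basement membranes contain Col4a1 and Col4a2, and neither rose with the vascular score, with slopes of -0.06 ± 0.21 and -0.50 ± 0.31 (adjusted p = 0.922 and 0.493). In the partner list 7 of 22 rose with this score, led by Bgn (2.81 ± 0.25) and Fn1 (2.50 ± 0.37). From the other lists rose 3 of 13 genes for propeptide removal and crosslinking (Lox, Pcolce and Adamts14), 2 of 10 receptors (Mrc2 and Ddr2), 1 of 10 breakdown genes (Timp1) and 0 of 20 for hydroxylation and chaperoning. Of these 13 calls, 4 remained without BXD56 and BXD75, those of Bgn, Fn1, Lamb2 and Pcolce, and with all 5 scores in one fit only that of Bgn did (adjusted p = 0.0325). Without BXD90 the calls of Col6a2 (adjusted p = 0.106) and Adamts14 (0.0993) were lost, and without BXD32 that of the matrix protein gene Thbs1 (0.0527). Adamts14 was rarer than Timp1, with means of 0.466 and 0.746 CPM over the lines.

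Col6a1 stood apart from the rest through the striatal markers, a list of 7 genes of medium spiny neurons such as Drd2 and Adora2a. Of the 43 collagen genes 2 rose with this score and 3 fell, where 3.48% of all genes tested rose and 1.21% fell. Col6a1 had a slope of 0.77 ± 0.07 (adjusted p = 1.04e-10) and Col17a1 one of 0.56 ± 0.15 (0.0253), while Col4a3 had -0.35 ± 0.10 (0.0437), Col6a6 -0.26 ± 0.08 (0.0439) and Col27a1 -0.22 ± 0.06 (0.0292). Without BXD90, the line richest in these markers, the slope of Col6a1 was 0.82 (adjusted p = 4.21e-07) and Col4a3 was the other gene that passed. Without BXD32, Col6a1 (0.80, adjusted p = 2.89e-10) and Col17a1 (0.64, 0.00925) passed again, whereas Col4a3 (adjusted p = 0.149), Col6a6 (0.0650) and Col27a1 (0.0964) did not, and Col16a1 and Col23a1 were called lower in their place. Without BXD90 and BXD45 the slope of Col6a1 was 0.94 (adjusted p = 2.24e-08), and it alone passed. DESeq2 called 2 higher and 7 lower, and in the fit with all 5 scores Col6a1 was higher (0.68, adjusted p = 1.31e-08) and Col5a3, Col18a1, Col23a1 and Col27a1 were lower. Of the genes that make, process and bind collagen, 3 rose and 2 fell, beside the 3.48% and 1.21% of all genes. The genes tested were 22 partner matrix proteins, 20 for hydroxylation and chaperoning, 13 for propeptide removal and crosslinking, 10 receptors and 10 breakdown genes. Adamts3, a procollagen N-proteinase, rose with the score (0.70 ± 0.06, adjusted p = 8.31e-12), as did Timp1 (0.47 ± 0.12, 0.00985) and Bgn (0.31 ± 0.09, 0.0452), while the related N-proteinase Adamts2 (-0.26 ± 0.06, 0.00264) and the prolyl hydroxylase subunit P4ha3 (-0.22 ± 0.07, 0.0497) fell. Without BXD90 the calls of Adamts3 (0.58) and Timp1 (0.66) remained, and without BXD32 those of Bgn (adjusted p = 0.0599) and P4ha3 (0.0852) were lost. With all 5 scores in one edgeR fit 2 of these 5 calls remained, those of Adamts3 and Adamts2. Those of Timp1 (adjusted p = 0.277), Bgn (0.826) and P4ha3 (0.231) were lost.

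**Figure D3:**
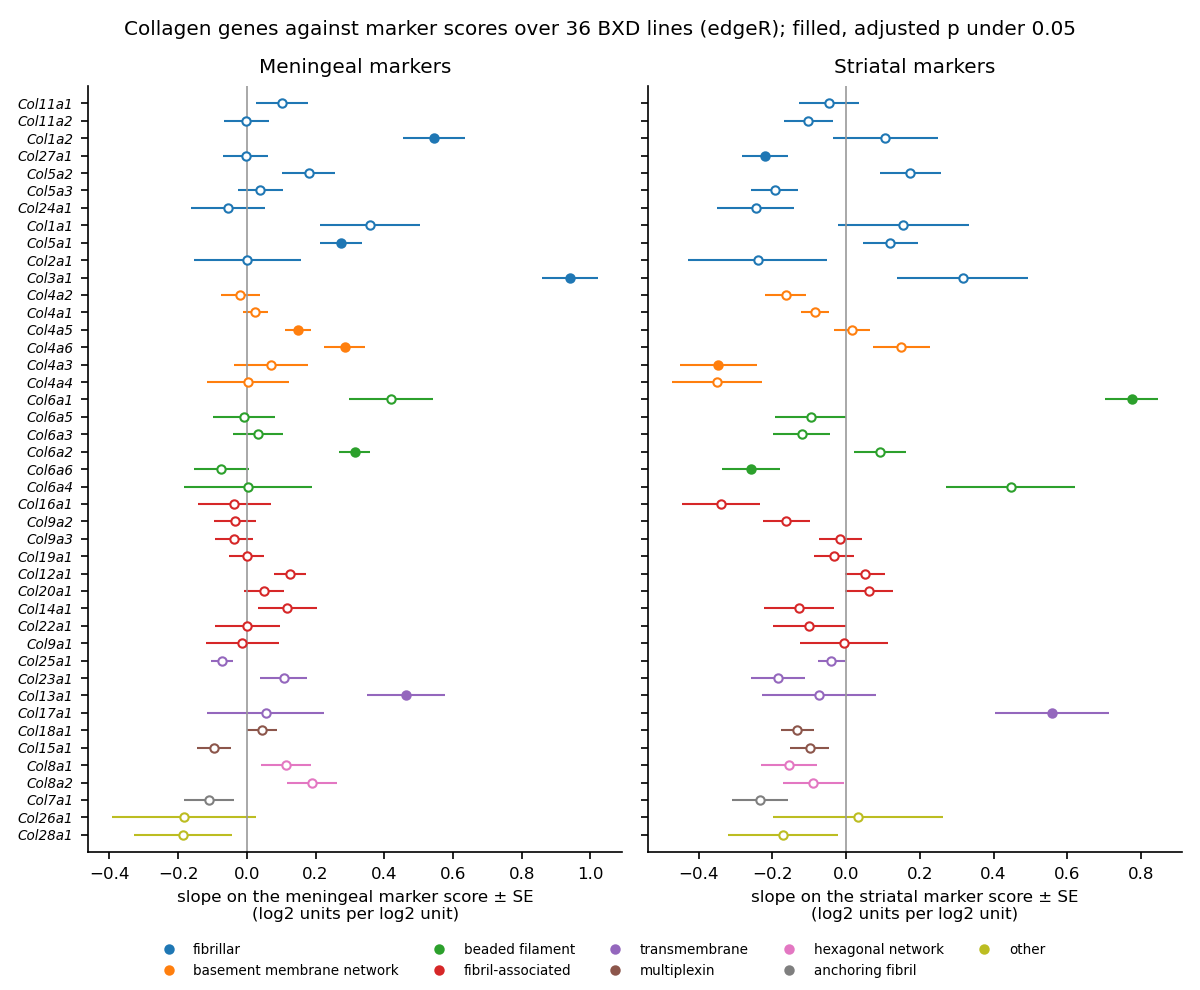
Slope ± SE of each of the 43 tested collagen genes on the meningeal (left) and striatal (right) marker scores over the 36 lines, in log2 units per log2 unit, coloured by class. Filled points passed at an adjusted p under 0.05 in edgeR: 7 at the left, led by Col3a1 (0.94), and 5 at the right, led by Col6a1 (0.77).

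The 2 main type VI chains therefore differed in what they moved with, although their genes are neighbours. Col6a2 had a striatal slope of 0.09 ± 0.07 (adjusted p = 0.581) against 0.77 for Col6a1, while their meningeal slopes were 0.31 ± 0.05 and 0.42 ± 0.12 (adjusted p = 0.0751 for Col6a1). The difference was tested directly as log2 Col6a1 minus log2 Col6a2 in each line. It rose with the striatal score over 36 lines (Pearson's r = 0.80, Spearman's rho = 0.86, permutation p = 1e-05, adjusted over 2 scores 2e-05), with r = 0.81 without BXD45 and BXD90 and 0.77 without BXD90. No relation to the meningeal score was detected (r = 0.09, rho = 0.04, adjusted permutation p = 0.602, r = 0.14 without BXD56 and BXD101). Between the chains themselves r was 0.40 (rho = 0.26, adjusted permutation p = 0.0386), and 0.09 without BXD55 and BXD90. Col6a2 with Col6a3 gave r = 0.25 (adjusted permutation p = 0.181).

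**Figure D4:**
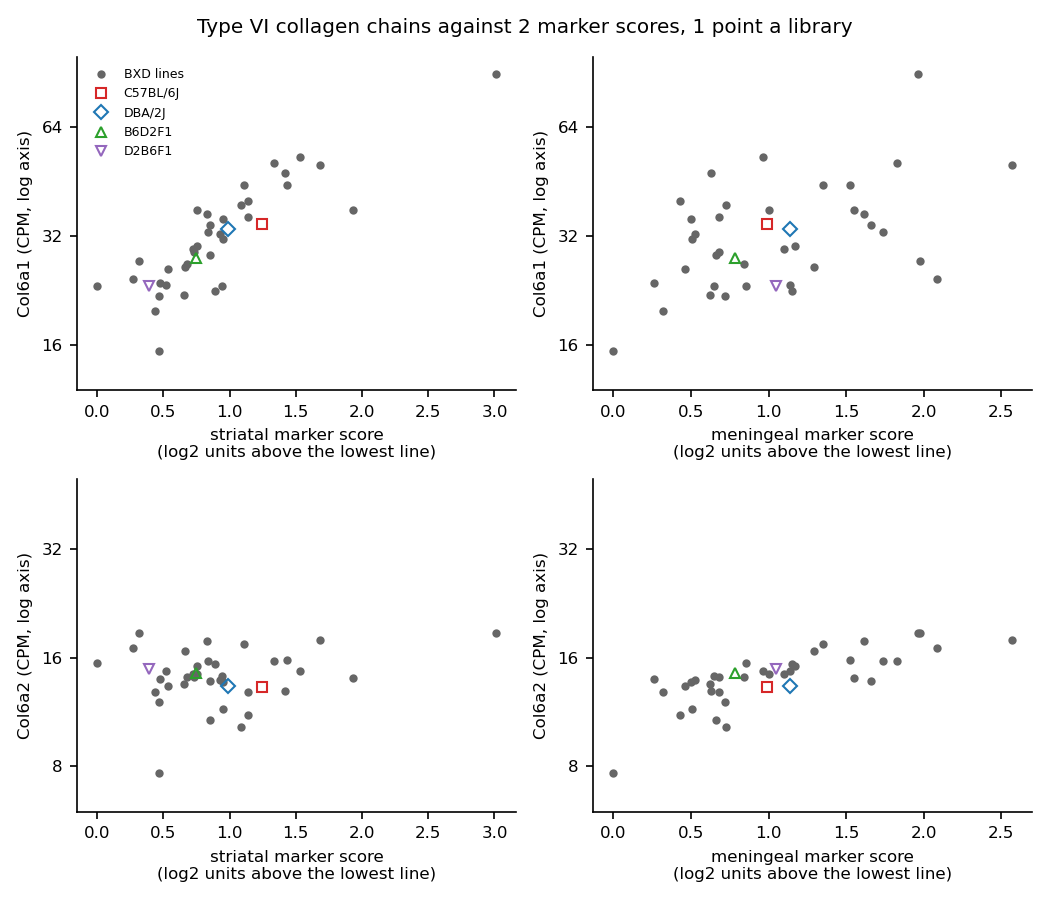
CPM (log axis) of Col6a1 (top) and Col6a2 (bottom) against the striatal (left) and meningeal (right) marker scores in log2 units above the lowest line, 1 point a library. Col6a1 climbs with the striatal score from about the level of D2B6F1 (23.3 CPM) to 89.6 CPM in BXD90, and Col6a2 climbs with the meningeal score.

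The windows around the starts of both genes are shown because the neighbours differed in this way. Both are read from the minus strand of chromosome 10 (RefSeq, GRCm38.p6), Col6a1 at chr10:76725995-76726294 and Col6a2 at chr10:76623581-76623880. They are printed 5′ to 3′ on that strand, with matches to the 3 motifs named above in capitals.
Col6a1: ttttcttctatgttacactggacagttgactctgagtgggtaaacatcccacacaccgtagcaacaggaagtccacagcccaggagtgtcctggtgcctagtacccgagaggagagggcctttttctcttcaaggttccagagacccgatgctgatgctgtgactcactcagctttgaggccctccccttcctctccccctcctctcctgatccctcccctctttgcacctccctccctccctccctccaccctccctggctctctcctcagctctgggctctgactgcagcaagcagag
Col6a2: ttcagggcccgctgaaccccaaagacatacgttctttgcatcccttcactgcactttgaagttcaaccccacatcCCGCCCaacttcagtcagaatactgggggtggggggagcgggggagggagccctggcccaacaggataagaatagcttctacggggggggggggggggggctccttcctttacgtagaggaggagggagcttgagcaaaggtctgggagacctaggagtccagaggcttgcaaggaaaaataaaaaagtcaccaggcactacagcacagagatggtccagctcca
The Col6a1 window holds none of the 3 motifs, and that of Col6a2 holds 1 GC box, on the opposite strand.

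With choroid plexus markers, 4 of 43 collagen genes rose and 0 fell, where 3.94% of all genes tested rose and 4.79% fell. They were Col4a4 (0.40 ± 0.11, adjusted p = 0.0227), Col4a3 (0.33 ± 0.10, 0.0368), Col8a1 (0.29 ± 0.07, 0.0137) and Col12a1 (0.22 ± 0.05, 0.00564). These calls rested on BXD32: without it 0 of 43 passed, and the slope of Col12a1 was 0.21 (adjusted p = 0.534). In the lists of collagen partners 3 genes rose and 4 fell, beside the 3.94% and 4.79% of all genes. Among them, the collagen receptor subunit Itgb1 rose (0.15 ± 0.03) and the receptor Gpr56 fell (-0.17 ± 0.04). The genes tested were 22 partner matrix proteins, 20 for hydroxylation and chaperoning, 13 for propeptide removal and crosslinking, 10 receptors and 10 breakdown genes. These counts were not read as particular to the lists. None of the 7 called genes passed without BXD32. The slopes of Nid1 (0.23 with BXD32 and 0.35 without) and Mmp15 (-0.14 and -0.19) were no smaller. Those of Itgb1 (0.15 and 0.086), Gpr56 (-0.17 and -0.11) and Fap (0.61 and 0.34) were smaller without BXD32. So were those of Lepre1 (-0.154 and -0.117) and Timp2 (-0.094 and -0.085). Without BXD90 the call of Lepre1 was lost (edgeR, adjusted p = 0.0521). With thalamic markers edgeR and DESeq2 both called 0 collagen genes, where 0.925% of all genes tested rose and 0.125% fell. An unadjusted p under 0.05 was found for 10 of 43 and for 9.19% of all genes. Col25a1 had a thalamic slope of 0.15 ± 0.04 (adjusted p = 0.0858), which passed without BXD32. None of the genes in the lists of collagen partners was called with thalamic markers or with Fgf15.

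Fgf15, the gene named in the series title, showed no relation to collagens that survived correction. Over the lines 0 of 43 collagen genes passed in edgeR and 0 in DESeq2, where 0.00631% of 15836 genes did, and 5 of 43 had an unadjusted p under 0.05 compared with 5.06% of all genes. Those 5 all had negative slopes on log2 Fgf15, Col9a2 (-0.13 ± 0.04, adjusted p = 0.706), Col4a2 (-0.11 ± 0.04, 0.792), Col23a1 (-0.10 ± 0.05, 0.973), Col18a1 (-0.07 ± 0.03, 0.921) and Col15a1 (-0.07 ± 0.03, 0.977).

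BXD lines were compared with the 4 parental and hybrid libraries in the same way, and 0 of 43 collagen genes differed in edgeR or DESeq2, as did 0% of all 16198 genes. Both sides carry the C57BL/6J and DBA/2J genomes, so differences between parental alleles would largely average out here. The smaller side also holds only 4 libraries. None of the 43 had an unadjusted p under 0.05, against 1.01% of all genes. Of 176 collagen values in the parents and hybrids, 2 lay outside the range of the 36 lines, Col4a5 in C57BL/6J and Col22a1 in B6D2F1.

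Parental differences were read by size alone, since each parent had 1 library. Of 33 collagen genes with at least 5 CPM in either parent, 5 were apart by at least 0.5 log2 units, compared with 2.90% of 12157 genes. Higher in C57BL/6J were Col6a4 (5.81 against 2.80 CPM, 1.03 log2 units with a counting SE of 0.21), Col2a1 (9.20 against 5.64, 0.70 with 0.15) and Col26a1 (8.65 against 5.64, 0.61 with 0.15). Higher in DBA/2J were Col3a1 (6.25 against 4.23, -0.56 with 0.18) and Col6a6 (5.68 against 3.87, -0.54 with 0.19). Just outside this size lay Col6a5 (12.9 against 17.8 CPM, -0.47 with 0.10) and Col16a1 (70.4 against 51.95, 0.44 with 0.05). The 630 pairs of lines set the scale, with a median of 7 collagen genes apart by this size and a range of 0 to 19, so the parents did not differ in more of them than 2 lines usually do. DBA/2J reads aligned to a reference of C57BL/6J origin could be lost at variant sites, which was not tested.

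Alleles that switch a gene between levels would leave an empty interval in the sorted lines, and 0 of 41 collagen genes with a mean of at least 1 CPM had an interval of 1 log2 unit or more with at least 6 lines on each side, as did 0.469% of 14488 genes. The widest was in Col26a1, a little-studied secreted collagen, at 0.75 log2 units: 13 lines lay between 2.70 and 4.19 CPM and 23 between 7.12 and 15.4, and 0.773% of all genes had a step as wide. In the parents and hybrids it was at 8.65 CPM in C57BL/6J, 5.64 in DBA/2J, 7.16 in B6D2F1 and 7.52 in D2B6F1, so DBA/2J fell inside the interval that the lines left empty. The 13 low lines shared 5 with the 13 lines below the widest step in Fgf15. The next widest steps were 0.33 in Col6a4 and 0.24 in Col2a1, without an empty interval of this kind.

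**Figure D5:**
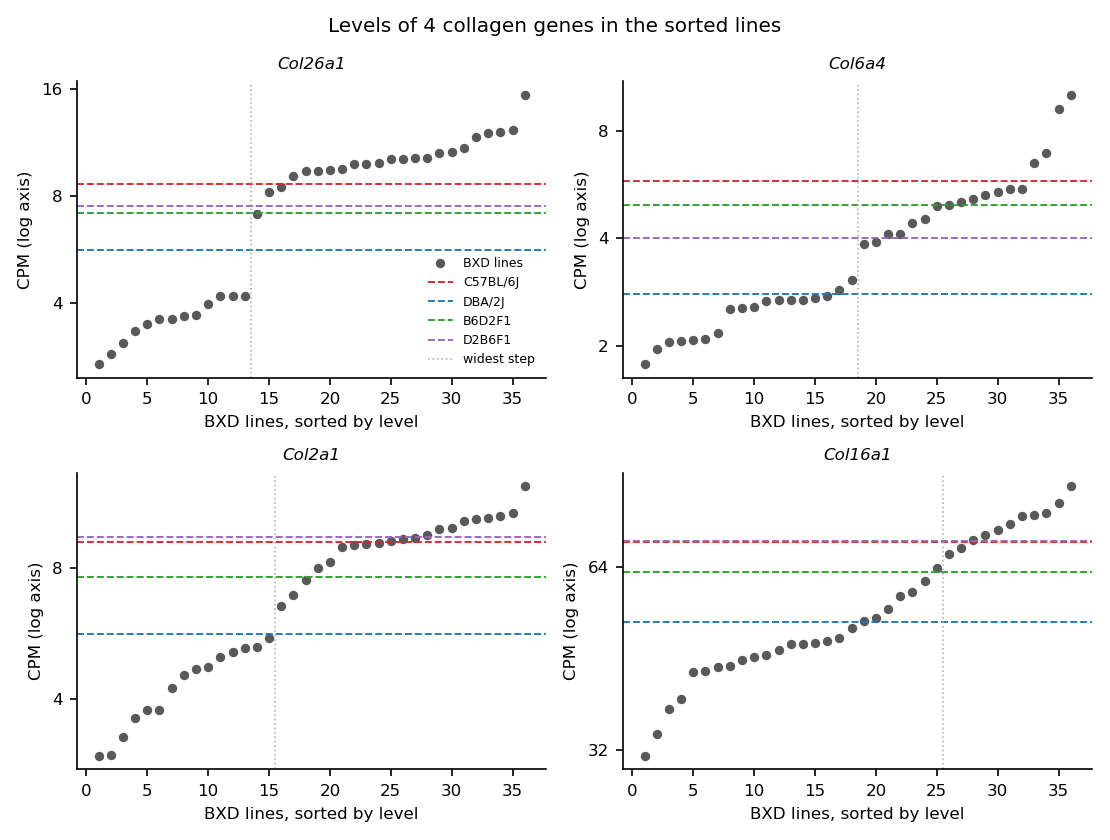
CPM (log axis) of 4 collagen genes in the 36 lines sorted by level, with dashed lines for the parents and hybrids and a dotted line at the widest step. Col26a1 jumps from 4.19 to 7.12 CPM after the 13th line, whereas Col6a4, Col2a1 and Col16a1 climb with smaller steps.

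For the 2 most abundant genes of each main class, the 5 genes most alike over the lines were listed by Pearson's r of log2 CPM, as a description. Col25a1 was most like Camk2d (r = 0.79), Akap2, Zmat4, Meg3 and Plch1 (0.76), and Col23a1 was most like Sparc (0.70), Ak4, Pam, Npbwr1 and Creld2. Col4a1 and Col4a2 headed each other's lists, followed by Rap1gap2, Pcsk1, Pdcd11 and Nxf1 for Col4a1 and by Lrrc16b, Hdac6, Magee1 and Ankrd24 for Col4a2. No defining endothelial gene stood among them. The list of Col6a1 was Arpp21 (0.89), Rin1, Krt9, Lmo7 and Bcl11b (0.87), and that of Col6a5 was Serhl (0.62), Actl6a, Ccdc135, Tpd52l2 and Capsl. Col11a1 was most like Msl3 (0.71), 2810403A07Rik, S1pr1, Supt20 and Ptplb, Col11a2 like Myh14 (0.69), Myh7b, Clasrp, Sfswap and Tchp, and Col9a2 like Akap8l (0.76), Ttll3, Nyap1, Gigyf1 and Gal. For Col16a1, 4 of the 5, Iqcc (0.78), Hdac1, Dcdc2b and Ptp4a2, lie within 0.54 Mb of it on chromosome 4, and the fifth is Egfl6.

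Further genes were looked up after their values had been seen, because their spread was wide. All 5 genes most like Col6a4 lie on chromosome 9 between 0.27 and 0.41 Mb away, namely Rpl29 (r = 0.88), Abhd14a, Dusp7, Poc1a and Abhd14b (0.83). All of these were, like Col6a4, higher in C57BL/6J than in DBA/2J, with 13.8 against 3.56 CPM for Rpl29, a ribosomal protein gene with near-identical copies whose counts are uncertain. Col26a1 was most like A430033K04Rik (0.78), Zfp157 and Trip6, which lie within 1.83 Mb on chromosome 5, and Col2a1 was most like Rapgef3 (0.75), which lies 0.23 Mb away on chromosome 15. Most like Col3a1 were Aldh1a2 (0.89), Islr, Nov, Dcn and Slc13a4 (0.85), all but Nov being markers of the meningeal score. Col1a1 was most like Col1a2, Lyz2 (0.74), F13a1, Pear1 and Angptl2, of which Lyz2 and F13a1 are known from macrophages. Over all 41 collagen genes, 29.3% had at least 1 of their 5 most alike genes within 10 Mb, against 20.2% of 14445 genes, and 7.32% had 3 or more, against 7.72%.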

How the data were processed

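Stranded poly(A) libraries of hypothalamic RNA were sequenced as 100-base single-end reads with 40 M planned a library, per the labels' protocols. The submitters' processing notes name TopHat2 2.0.8, HTSeq 0.5.4p3, DESeq and the mouse build mm9, and the annotation and strand setting are not given in the sources used here. The authors deposited whole-number read counts for 23955 gene symbols, which every result uses. The authors' deposited normalized table, a signal per gene and library that holds 43 of the collagen genes, served for alternatives only.

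CPM were computed with TMM factors in edgeR 4.0.16 (R 4.3.3), with a prior count of 2 for log2 CPM. The quasi-likelihood test (robust, genes kept by filterByExpr, adjusted p under 0.05 over all genes tested by the Benjamini-Hochberg method) was fitted on all genes, over 40 libraries for the BXD comparison and 36 lines for slopes on centred log2 Fgf15 or a marker score, the mean log2 CPM of the markers with at least 1 CPM. A slope count leaves out that list's own genes from the percentage of all genes. Tests were checked on simulated data. Exon lengths and distances come from GENCODE vM21 (GRCm38), promoter windows from RefSeq (GRCm38.p6). Errors of single libraries cover counting only, since copies made by PCR were not marked.

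Given in full were the 2 most abundant genes of each class, every gene called in a test and every gene of a pair that passed, with up to 4 called genes of each list of collagen partners; other names were chosen after their values were seen. The members, lists and tests were chosen with earlier results of these data known. Alternatives were DESeq2 1.42.0, its size factors, no filter, limma 3.58.1 on log2 of the normalized signal plus 1, library size as a term, 5 scores in one fit, summed markers and lines left out, BXD32 and BXD90 after seeing the data.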

Additional observations from a re-analysis of the deposited data

How the results depend on the processing

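No paired analysis was possible because strains were sequenced once each, with nothing that ties libraries across groups. Of 81 counts and medians recomputed under an alternative, 65 stayed. A count stayed if it was within 1.5 times the reported one, with 0 against 0 included. The median spread stayed if it moved by less than the spread between genes. The collagen counts with Fgf15 and against the parents and hybrids were 0 throughout. Leaving out each parent or hybrid in turn gave 0 to 0 collagen genes between them and the lines. With 5 scores in one fit, the meningeal count was 2 and the vascular count 0. Without the 2 farthest lines, 1 was called with the vascular score, 0 with the choroid plexus score and 1 with the striatal score. Leaving out BXD32 (chosen after seeing the data) gave 0 for choroid plexus and 1 for thalamic markers, and leaving out BXD90 (likewise) 2 for striatal markers. Without BXD32 the striatal count was 4, of which 2 were among the 5 reported. With summed markers the counts were 8 for choroid plexus, 3 for striatal and 1 for thalamic markers. DESeq2 gave 9 for striatal markers. Asking 1 log2 unit between the parents left 1 gene, and a step of 0.5 log2 units, set after seeing the data, was found in 1 gene. Of the pairs, 3 passed after regression on the meningeal and vascular scores, where Col1a1 with Col3a1 turned to -0.01005, and 4 passed without the 2 farthest lines. The cause of these shifts was not tested, except that fits without lines hold fewer samples. Of 249 single slopes and correlations, 194 kept direction and call, 54 kept direction and lost the call, and 1 reversed. The median spread of collagen genes, an SD of 0.27 log2 units, moved by less than the spread between genes under each scaling tried and without BXD32 or BXD90. Depth limits the rarest genes: Col10a1, with 1 to 16 reads a library, could not be judged. Col17a1, called with the striatal score, had 5 to 29 reads a library.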
